A study of Rattus norvegicus and Mus musculus with 10 samples.

Results

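The rat barcode list of this study of leukocytes from the borders of the central nervous system holds 26301 cell barcodes from 6 libraries, and the deposited table of cluster names covers only part of them. The barcodes described here are the 520 of rat dura and pia that carry the library suffix of annotated cells of those tissues and have no entry in the cluster table. They were 241 of 5194 dura barcodes (4.64%, 95% exact Clopper-Pearson interval 4.08 to 5.25) and 279 of 4318 pia barcodes (6.46%, 5.75 to 7.24). The groups are the unannotated dura barcodes and the unannotated pia barcodes, each set against the annotated cells of its own library, 4953 in dura and 4039 in pia. All come from naive Lewis rats, an inbred strain, and no age is given. The labels state 25 rats for the study and not how many went into a library, and they call the source dura-derived and pia-derived leukocytes. Dura cells were sorted as positive for CD45, the pan-leukocyte surface protein, and negative for a CD45 antibody given into the blood, which stains cells inside vessels. The protocol does not list pia by that name among the sorted tissues, and reading its abbreviation SDM as the pia library is an assumption, so whether pia cells were sorted is not certain. RNA was then counted in droplets with version 2 chemistry at a target of 6000 to 10000 cells per library. Each tissue is 1 library, so no difference below has a replicate check and no test was possible. Cells of a library are not replicates, and every interval covers counting error only. Levels are in CPM: the UMIs of a gene are summed over a set of barcodes, divided by all UMIs of the set and scaled to a common total.

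A droplet barcode can hold a whole cell, several cells, a damaged cell, or an almost empty droplet with free RNA, and depositors commonly leave barcodes with extreme gene counts or mitochondrial shares out of clustering. The dura mater lies against the skull and holds fenestrated vessels, fibroblasts, macrophages, mast cells and B-lineage cells, while the pia covers the brain surface beside the leptomeningeal fibroblasts and the choroid plexus. Hbb encodes the beta chain of haemoglobin and is made by erythroid cells. Ttr encodes transthyretin, a thyroid hormone and retinol carrier that is among the most abundant transcripts of choroid plexus epithelium.

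The unannotated barcodes of the 2 tissues stood at opposite ends of depth. In dura they had a median of 3257 UMIs and 1082 genes, against 1705 UMIs and 766 genes in annotated dura cells, and ran between 500 and 19814 UMIs. In pia they had a median of 283 UMIs and 179 genes, against 981 UMIs and 473 genes in annotated pia cells, and ran between 238 and 2199 UMIs. They therefore held 10.2% of all UMIs of the dura library (1140360 of 11223783) and 2.39% of the pia library (103817 of 4350090). The median mitochondrial share of UMIs was 4.60% in unannotated and 5.54% in annotated dura barcodes, and 8.21% in unannotated and 4.87% in annotated pia barcodes. With every barcode thinned to 200 UMIs, the median number of genes was 154 in unannotated and 148 in annotated dura barcodes, and 138 in unannotated and 141 in annotated pia barcodes. At this equal depth the medians lay close together in both tissues.

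Over the 6 rat libraries the 21187 annotated cells had 201 to 2498 genes and at most 19.98% mitochondrial UMIs. These limits were read from the annotated cells, after the values were seen; the filters the authors applied are not given in the sources used here. In dura 111 unannotated barcodes (46.1%) lay outside this range. Of these, 61 had more genes than any annotated cell, with a median of 10279 UMIs and 2787 genes. A further 31 had a higher mitochondrial share at a median of 25.9%, and 5 had both a higher mitochondrial share and fewer genes, at a median share of 90.1%. The last 14 had too few genes only, with a median of 84. The other 130 dura barcodes lay inside both limits. In pia 238 barcodes (85.3%) lay outside: 209 by few genes (median 177), 26 by few genes and a high mitochondrial share, and 3 by mitochondrial share alone. Only 41 pia barcodes lay inside, with a median of 748 UMIs and 440 genes. The nearest barcodes beyond the limits were close to them, at 2506 genes on the high side and 188 on the low side in dura, 200 genes in pia, and a mitochondrial share of 20.04% in dura.

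**Figure D1:**
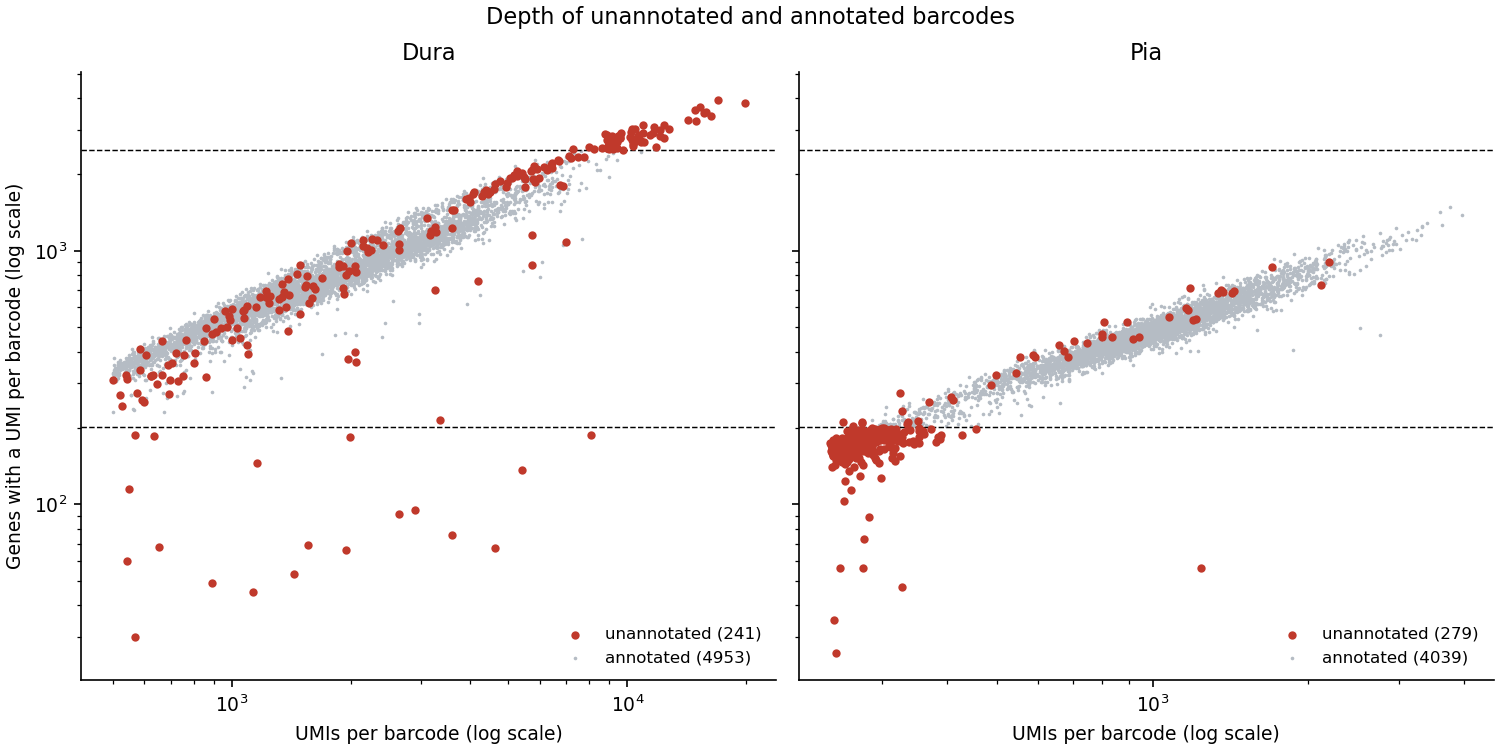
UMIs per barcode (x axis, log scale) against genes with a UMI (y axis, log scale) for unannotated barcodes and annotated cells of dura and of pia, 1 point per barcode. Unannotated dura barcodes spread above 2498 genes and below 201 genes at high UMI numbers, whereas unannotated pia barcodes pile up at the shallow end, around 283 UMIs.

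The mean number of barcodes per rat library was 4383.5 ± 735.6 (SEM, n = 6) over all barcodes and 3531.2 ± 371.6 over annotated cells, and the labels state 4384 ± 736 cells per tissue, so the stated number counts the unannotated barcodes. The unannotated barcodes of the other libraries numbered 48 in CNS, 83 in choroid plexus, 115 in blood and 4348 in CSF. Among all 25911 rat barcode sequences 387 occurred in more than 1 library, and 8 of the 241 dura and 4 of the 279 pia barcodes were of this kind. The scrublet doublet caller marked 6 unannotated dura barcodes (2.49%, 0.919 to 5.34) and 70 annotated dura cells (1.41%, 1.10 to 1.78). All 6 were among the 61 with more genes than any annotated cell. In the pia library it marked 0 of 279 unannotated barcodes and 4 of 4039 annotated cells, or 0.0926% of the library. Whether the caller worked at so low a share was not tested, and nothing below rests on its pia calls.

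Across genes with 20 or more UMIs over both sets, 1705 of 10460 genes (16.3%) were at least 2-fold higher and 1553 (14.8%) at least 2-fold lower in unannotated than in annotated dura barcodes, with a median log2 ratio of 0.12. In pia 1068 of 8050 genes (13.3%) were at least 2-fold higher and 554 (6.88%) at least 2-fold lower, with a median of -0.08. Being past 2-fold is the only criterion for these counts, and the median log2 ratio is that of the genes measured. Trimmed-mean scaling (TMM) lowers every log2 ratio by 0.32 in both tissues, and the counts then become 1044 higher and 2188 lower in dura and 662 higher and 1044 lower in pia. Counts of list members past 2-fold were read against these shares. A gene with under 20 UMIs in annotated cells needed UMIs from unannotated barcodes to reach the minimum, which favours genes that are higher there; where this holds for several members of a list no count or median is given, and a single such member in a count is named. At the pia depth a further limit applies, since 1450 of the 8050 genes had 0 UMIs in unannotated barcodes.

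Of the 33 lists, haemoglobin had the largest ratio in dura. The haemoglobin list summed to 34509 CPM in unannotated and 78.2 CPM in annotated dura barcodes, 441-fold higher (411 to 474). Hbb had 6441 UMIs in 30 of 241 unannotated barcodes and 51 UMIs in 43 of 4953 annotated cells, or 5648 against 5.06 CPM, 1117-fold higher (848 to 1501). The alpha chain symbol Hba-a2 stands on 2 gene identifiers, which were 740-fold (655 to 838) and 199-fold (181 to 219) higher. How reads shared by such near-identical copies were counted is not given, so the split between them is uncertain. LOC103694857, a gene named only by its identifier, had 17852 CPM in unannotated and 13.6 CPM in annotated dura barcodes, and LOC100134871 had 215 and 0.198 CPM. Neither is on the haemoglobin list, so haemoglobin sums and shares here leave out their 20358 and 245 UMIs in unannotated dura barcodes. Whether they encode globin chains was not examined, and if they do, those sums and shares are too low. The alpha chain gene Hba-a3 was 281-fold higher (151 to 592), and like LOC100134871 it reached the minimum only through unannotated barcodes.

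Genes of the erythroid programme other than the globins summed to 1184 CPM in unannotated and 31.3 CPM in annotated dura barcodes, 37.8-fold higher (33.4 to 42.8). Of the 18 listed, 17 are in the file and 9 reached the minimum, and all of these but Bpgm reached it only through unannotated barcodes. Alas2, the erythroid enzyme of the first step of haem synthesis, had 116 UMIs in 23 unannotated barcodes and 1 UMI in annotated cells, a ratio of 1026 (180 to 40858). Ahsp, the chaperone of free alpha globin, had 552 and 1.19 CPM. Car1, a red cell carbonic anhydrase, had 294 and 1.39 CPM, and Klf1, the erythroid transcription factor that activates adult beta globin, had 52.6 and 1.29 CPM. The membrane protein genes Rhag and Slc4a1, which encodes the band 3 anion exchanger, each had 26 UMIs in unannotated barcodes and 0 in annotated cells, at least 76.6-fold higher against a floor of 3 counts over the group. Bpgm, which makes the red cell regulator of oxygen release, was under 2-fold, at 42.1 and 26.7 CPM. The gene Lgals5, a galectin known from rat reticulocytes, had 74 UMIs in 21 unannotated barcodes and 1 UMI in annotated cells.

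This RNA sat in few barcodes. A UMI of the haemoglobin list was found in 62 unannotated dura barcodes, 2 or more in 36 (14.9%, 10.7 to 20.1), and 10 or more in 26. Of annotated dura cells 118 had 2 or more (2.38%), in a tissue sorted for leukocytes, and only 1 had 10 or more. The 118 were uneven over the authors' clusters, with 69 of 1238 myeloid1 and 34 of 104 mDC1 cells but 3 of 836 Bc1 cells. Deeper cells pass a fixed minimum more easily, and Bc1 cells had a median of 850.5 UMIs, against 1705 in annotated dura cells. By level the list differed less, at 116 CPM in myeloid1, 280 CPM in mDC1 and 74.99 CPM in Bc1. It was highest in the 36 granulo cells, at 465 CPM, where the cell with 10 or more UMIs fell. After thinning to 500 UMIs the shares with 2 or more were 10.8% in unannotated and 0.213% in annotated dura barcodes. A split of the 26 at the lowest gene number of annotated cells, made after the values were seen, gave 13 and 13. The first 13 had 45 to 187 genes (median 76), and genes of the haemoglobin list were 54.0% to 68.5% of their UMIs (median 62.9%). Ribosomal protein genes were at 2353 CPM in them, Klf1, Mki67 and Car1 had 0 UMIs, Alas2 was found in 11 and Ahsp in 7. The second 13 had 215 to 3535 genes (median 757), with genes of that list at 0.0824% to 61.3% of UMIs (median 35.6%). Ribosomal protein genes were at 103873 CPM in these, Klf1 was found in 9, Car1 in 7, Rhag in 9 and the proliferation antigen Mki67 in 8. Of the second 13, 12 had 2 or more UMIs of the proliferation list, and of the first 13 none had. The erythroid list summed to 18118 CPM in the second and 3102 CPM in the first. Gata1, the erythroid lineage factor, had 0 UMIs in both.

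**Figure D2:**
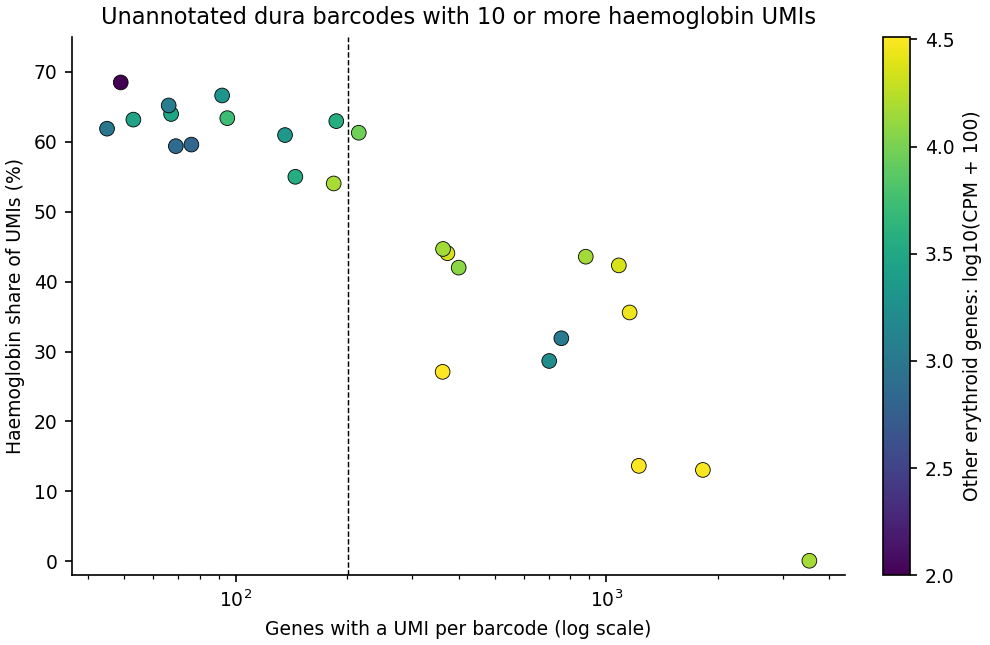
The 26 unannotated dura barcodes with 10 or more haemoglobin UMIs, by genes per barcode (x axis, log scale) and haemoglobin share of UMIs (y axis, percent), coloured by the level of the other erythroid genes as log10(CPM + 100). The dashed line marks 201 genes, the lowest number in any annotated cell; 13 barcodes left of it all lie between 54.0% and 68.5% haemoglobin, and the 13 to its right run down to near 0%.

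Mast cell genes were the next group. The mast cell list summed to 5286 CPM in unannotated and 36.0 CPM in annotated dura barcodes, 147-fold higher (132 to 164). All 10 of its genes in the file reached the minimum, but Ms4a2, Fcer1a, Mcpt2, Gata2 and Hdc did so only through unannotated barcodes. Cpa3, the mast cell carboxypeptidase, had 1371 CPM in unannotated and 4.96 CPM in annotated dura barcodes (276-fold, 209 to 374). The tryptases Tpsab1 and Tpsb2 had 1450 and 1241 CPM in unannotated barcodes, against 8.73 and 6.15 CPM in annotated cells. The chymase Cma1 had 600 against 6.05 CPM and the protease Mcpt2, known in rat as the mucosal chymase, 235 against 1.09 CPM. The high-affinity IgE receptor chains Ms4a2 and Fcer1a had 98.2 and 179 CPM in unannotated barcodes, against 0.496 and 1.09 CPM in annotated cells. Hdc, which makes histamine, had 41 UMIs in 22 unannotated barcodes and 1 UMI in annotated cells. The smallest difference was that of Kit, the stem cell factor receptor, at 36.0 against 6.74 CPM (5.33-fold, 3.53 to 7.97).

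Of unannotated dura barcodes 51 carried the mast cell list at 2 or more UMIs (21.2%, 16.2 to 26.9), against 19 annotated cells (0.384%, 0.231 to 0.598). At 500 UMIs the shares were 19.5% of unannotated and 0.117% of annotated dura barcodes. These barcodes were not extreme in depth, since 46 of the 51 lay inside the gene and mitochondrial range of annotated cells. Clustering the unannotated barcodes by themselves put 47 of them in a mast-like cluster with a median of 1247 UMIs and 659 genes, led by Tpsab1, Cpa3, Tpsb2, Cma1, Mcpt8l2 and Fcer1a. No authors' rat cluster is named for mast cells, and the best match among the authors' names was micro for 24 and NK for 18 of the 47.

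The granule proteases divided these 47 barcodes, a split looked for after the values were seen. With 10 UMIs as the minimum, 21 barcodes passed for the tryptases only, 11 for Mcpt8 and Mcpt8l2 only, 15 for both and 0 for neither. Mcpt8 is a protease of basophils in mouse, and Mcpt8l2 is named as its homologue; reads shared by these paralogues, or by the pair of tryptases, may have been counted on either. Mcpt8 had 2002 CPM in unannotated and 16.8 CPM in annotated dura barcodes, in 38 of 241 and 81 of 4953, and 1013 of its 2283 UMIs came from 1 barcode. Cma1 reached 2 UMIs in 5 of the 21 tryptase barcodes, 7 of the 11 with Mcpt8 and Mcpt8l2 alone and 8 of the 15 with both. The lectin gene Cd209a had 46 UMIs in 26 unannotated barcodes, all in the mast-like cluster, and 1 UMI in annotated cells. Tph1, the enzyme of the first step of serotonin synthesis, was found in 23 of the 47.

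**Figure D3:**
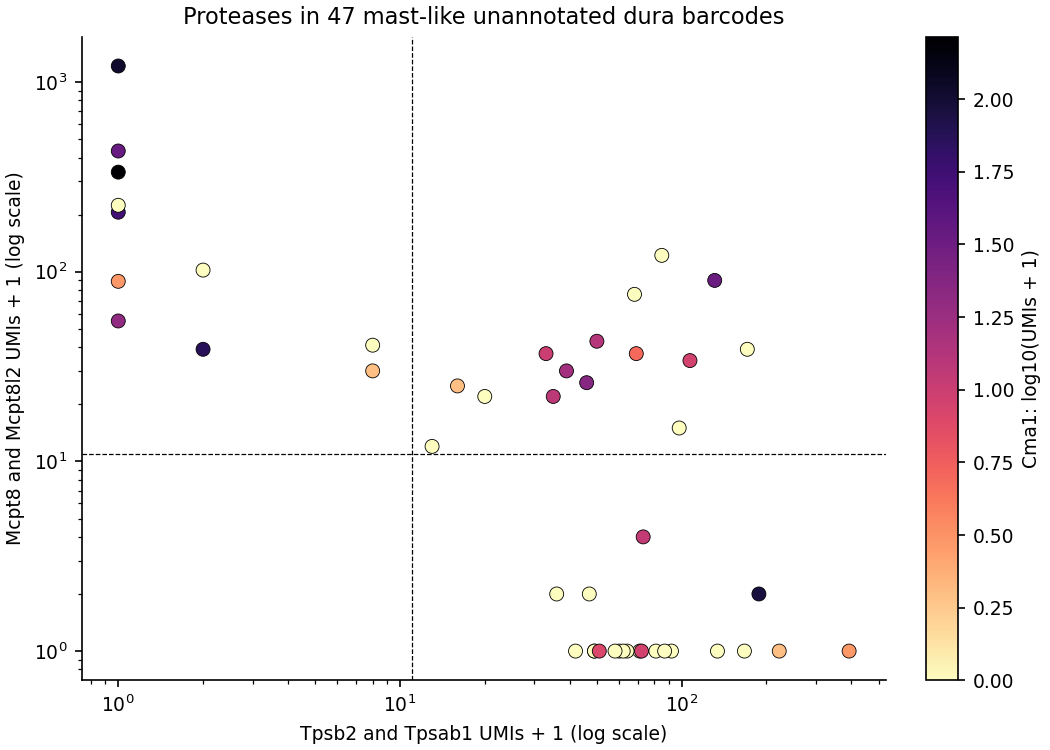
Tpsb2 and Tpsab1 UMIs (x axis, plus 1, log scale) against Mcpt8 and Mcpt8l2 UMIs (y axis, plus 1, log scale) in the 47 mast-like unannotated dura barcodes, coloured by Cma1 as log10(UMIs + 1). The dashed lines stand at 10 UMIs; 21 barcodes lie beyond the tryptase line only, 11 beyond the other only, 15 beyond both and none below both.

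The largest cluster of unannotated dura barcodes, 96 of 241, was B precursor-like, led by Igll1, Vpreb1, Mzb1 and Vpreb2. It was deep, with a median of 6054.5 UMIs and 2105 genes, and 37 of its barcodes had more genes than any annotated cell. It also held 14 barcodes above the mitochondrial range and 5 both above that range and below the gene range. The B precursor list was carried by 71 of the 96. Igll1, Vpreb1 and Vpreb2 encode the surrogate light chain that pairs with the heavy chain in pre-B cells. Over all unannotated dura barcodes Igll1 had 1296 CPM, against 202 CPM in annotated cells (6.43-fold, 6.00 to 6.87), Vpreb1 was 6.04-fold and Vpreb2 6.82-fold higher. On the B precursor list, the other 3 genes measured were at least 2-fold lower (14.8% of all genes were that much lower): the recombinase genes Rag1 and Rag2 had 2 and 5 UMIs in unannotated barcodes, against 111 and 130 in annotated cells, and Dntt, which adds untemplated bases at receptor joints, had 4 against 242. The list median was 0.52 and the list sum 1792 against 326 CPM. The borders of the cluster depended on the resolution. At 1.0 in place of 0.5, dura gave 9 clusters in place of 6, of which the mast-like one of 47 barcodes was the largest. Clusters of 34, 32 and 29 barcodes then had the authors' cluster Bc2 as best match for 29, 26 and 23. Vpreb2, in the first of these, was the only gene of the B precursor list among the 10 leading genes of any cluster. Leading genes compare a cluster with all other unannotated barcodes, so genes that these clusters share tend not to lead.

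Most of this cluster, 78 of 96, was most like the authors' cluster Bc2, whose 371 annotated dura cells had a median of 2199 UMIs and 1091 genes. Set against those cells, the cluster had 2377 against 2001 CPM of Igll1 and 458 against 413 CPM of Vpreb1. Rag1 was at 3.22 against 42.2 CPM, Rag2 at 8.06 against 63.3 CPM and Dntt at 3.22 against 253 CPM. Cd79a, a signalling chain of the B cell receptor, was at 1046 against 2208 CPM. The mature B cell gene Ms4a1 had 1 UMI in the cluster and 2 in Bc2. The proliferation list summed to 12924 CPM in the cluster and 16200 CPM in Bc2, with 2 or more UMIs in 80 of 96 and 325 of 371 barcodes. These clusters were formed from the same genes, so the values describe them and are no test.

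Proliferation genes as a list were higher over all unannotated dura barcodes, 8954 against 2692 CPM (3.33-fold, 3.25 to 3.40), with 16 of 17 members at least 2-fold higher (16.3% of all genes were that much higher). Of the 16, Rrm2, at 9 against 14 UMIs, reached the minimum only through unannotated barcodes. Mki67 was at 269 against 70.4 CPM, Top2a, which untangles replicated DNA, at 382 against 112 CPM, and Hmgb2 was the member under 2-fold. The list reached 2 UMIs in 60 of the 61 barcodes with more genes than any annotated cell, in 76 of the 130 inside the range and in 4 of the 31 with a high mitochondrial share alone. At 500 UMIs the shares were 45.2% of unannotated and 14.0% of annotated dura barcodes. B cell genes as a list did not stand out, at 1266 against 1409 CPM. Of 8 members 0 were at least 2-fold higher and 2 at least 2-fold lower (14.8% of all genes were that much lower). Of 4 plasma cell genes 3 were at least 2-fold higher and 1 at least 2-fold lower. Among the 3 was Jchain, which links antibody multimers, at 47.4 against 4.46 CPM (10.6-fold, 7.01 to 16.1).

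Pairs of leukocyte lists in 1 barcode were also counted, since several cells in a droplet would bring lists together. B and T cell lists were both carried at 2 or more UMIs by 36 of 241 unannotated (14.9%) and 95 of 4953 annotated dura barcodes (1.92%). The T cell genes behind this were mainly Cd3g and Lck, found in 48 and 33 of the 96 B precursor-like barcodes. Cd3g was at 203 CPM in the cluster and 141 CPM in annotated Bc2 cells, where 83 of 371 had it, and Lck at 75.7 and 60.0 CPM. Mast and NK lists were both carried by 28 unannotated (11.6%) and 2 annotated (0.0404%) dura barcodes. The mast-like cluster, where 26 of 47 barcodes carried the NK list, had a median of 1247 UMIs, against 1705 in annotated dura cells. Deeper barcodes pass a fixed minimum more easily, and the part of several cells per droplet in these shares was not tested beyond the caller's 6 barcodes.

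Neutrophil genes went both ways in unannotated dura barcodes. Of 10 measured list members 7 were at least 2-fold lower and 2 higher (median log2 ratio -4.14 beside 0.12). Of all genes 14.8% were that much lower and 16.3% that much higher. Among annotated dura cells the list was at 517070 CPM in the 36 granulo cells and 9873 CPM in the 119 myeloid3 cells. The other clusters were at 62.1 to 181 CPM, so the annotated level of the list came mainly from granulo and myeloid3. Camp, the cathelicidin of secondary granules, had 5 UMIs against 2764, or 62.5-fold lower (26.8 to 193), and Ngp had 8 against 3112. Lcn2 and Retnlg had 1 UMI each against 217 and 345, and Mmp8 had 0 against 125, at least 4.71-fold lower. S100a9 was at 210 against 2672 CPM. Higher were Fcnb, a ficolin of immature granulocytes and monocytes, at 609 against 167 CPM (3.66-fold, 3.34 to 4.00), and Mpo, the primary granule peroxidase. Mpo had 13 UMIs in 3 barcodes against 19 in 10, and reached the minimum only through unannotated barcodes. Fcnb came mainly from a cluster of 10 unannotated barcodes led by Serpinb10, LOC24906 and Fcnb, with a median of 10424.5 UMIs, of which 8 had more genes than any annotated cell. In this cluster Fcnb was at 6366 CPM, Lyz2, the lysozyme of phagocytes, at 59646 CPM and S100a8 at 4396 CPM, with 1 UMI of Camp. The best match of 9 of the 10 was the authors' cluster myeloid3.

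Fibroblast genes were higher in unannotated dura barcodes although the sort selected for CD45. The leptomeningeal fibroblast list summed to 1531 against 221 CPM, 6.92-fold higher (6.50 to 7.37). Bone-forming genes went the other way, at 16.7 against 37.5 CPM, 2.25-fold lower (1.42 to 3.78), on 19 against 378 UMIs. The fibrillar collagen genes Col3a1 and Col1a1 were at 132 against 7.93 CPM and 117 against 14.8 CPM, the proteoglycans Dcn and Lum at 253 against 20.4 CPM and 162 against 17.0 CPM, and Mgp, which inhibits calcification, at 637 against 52.4 CPM. These came from 16 to 39 unannotated barcodes each. Ptgds, which makes prostaglandin D2, had 94 of its 95 UMIs in 1 barcode, and Apod, at 6 UMIs in annotated cells, had 32 of 33 in 1 barcode. The list was carried by 39 unannotated (16.2%) and 467 annotated (9.43%) dura barcodes, and by 9.66% and 1.14% at 500 UMIs. A cluster of 48 barcodes, 15 of them above the gene range, held these genes beside class II genes at 34461 CPM and is therefore not named. At a finer resolution its place was taken by 15 fibroblast-like barcodes led by Igfbp5, Fxyd1 and Col3a1 and 34 led by Il1r2, Ccl9 and RT1-Db1.

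Endothelial genes summed to 253 against 129 CPM in dura (1.97-fold, 1.73 to 2.24). Vwf, the clotting factor carrier of vessels, had 16 UMIs against 4, and like Emcn and Cldn5 it reached the minimum only through unannotated barcodes. Higher were Emcn (22.6-fold, 10.1 to 55.5), Cldn5 (10.3-fold, 4.43 to 24.4), Plvap, the diaphragm protein of fenestrated vessels (7.92-fold, 6.07 to 10.3), and Ramp2 (7.28-fold, 4.25 to 12.4). Plvap reached 2 UMIs in 11 barcodes. Cdh5, Kdr, Tek and Tie1 were within 2-fold, and Egfl7 was lower, at 22.8 against 48.7 CPM.

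Ttr RNA in unannotated dura barcodes was 77 UMIs in 5 barcodes, at 58, 9, 6, 3 and 1 UMI. Annotated dura cells had 15 UMIs in 12 of 4953. That is 67.5 against 1.49 CPM, 45.4-fold higher (25.9 to 85.0), and 75.3% of it lay in 1 barcode of 5722 UMIs and 2076 genes. Other choroid plexus markers did not accompany it: Folr1 was at 3.51 against 5.75 CPM, and Enpp2 was found in 1 of the 5 barcodes, with 4 UMIs. Aqp1, a water channel also found on red cells, had 63 UMIs in 20 barcodes against 17 in annotated cells. The 5 Ttr barcodes were looked at further after their values were seen. All 5 had UMIs of Asmt, the last enzyme of melatonin synthesis in the pineal gland (28, 1, 2, 1 and 1, in the order of their Ttr UMIs). All 5 also had Tph1 (79, 9, 6, 2 and 1) and Gngt1, a subunit of the rod transducin (50, 17, 3, 2 and 3). The synaptic gene Snap25 was found in 4 of them, at 14, 2, 3, 2 and 0 UMIs.

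Asmt had 33 UMIs in all unannotated dura barcodes, every one of them in these 5, and 6 UMIs in 6 annotated cells. Aanat, the enzyme before Asmt, had 0 UMIs in either set. Of the 5 barcodes, 4 fell in a cluster of 16, all inside the gene and mitochondrial range, whose leading genes F11r, Gngt1, Plat, Clu, Plvap and Snap25 mix neuronal and endothelial markers. Within the 241 barcodes, 5 had 2 or more UMIs of Snap25 and 11 of Plvap, and 0 had both. The cluster thus joined barcodes with different genes and is not named.

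Macrophage, class II, T cell and NK cell genes were lower in unannotated dura barcodes. All 12 border macrophage genes were at least 2-fold lower (median log2 ratio -2.67; 14.8% of all genes were that much lower), with a sum of 6318 against 38821 CPM, 6.14-fold lower (6.00 to 6.29). Apoe, the lipid carrier, was at 4270 against 25210 CPM, the complement genes C1qa, C1qb and C1qc were 6.59-fold to 7.17-fold lower, and Lyve1, the hyaluronan receptor, was 10.1-fold lower (6.40 to 17.2). All 8 class II genes were lower (median -2.48), with Cd74, the invariant chain, at 2497 against 15667 CPM. Of T cell genes 7 of 10 were lower (median -2.71) and of NK cell genes 8 of 10 (median -3.12). Cd8a had 2 UMIs against 456, and the perforin gene Prf1 had 0 against 317, at least 12-fold lower. The chemokine gene Ccl5 was at 49.1 against 1459 CPM. The 12 lowest genes in dura were this one, Cd8a, the 4 neutrophil genes Camp, Ngp, Retnlg and Lcn2, and Cd209f, Sh2d1a, Gzmk, Ccl1, Klri2 and Faslg, which had 1 or 2 UMIs each in unannotated barcodes. Type I interferon genes were lower in 11 of 12 (median -1.96) and dissociation stress genes in 8 of 14 (median -1.22). The border macrophage list was still carried at 2 UMIs by 204 of 241 unannotated and 3973 of 4953 annotated dura barcodes, and by 35.9% and 53.6% at 500 UMIs. Of 33 lists, 12 were at least 2-fold higher and 12 at least 2-fold lower by their sums. The higher ones include the Schwann cell and ependymal lists, at 6 UMIs each in unannotated barcodes against 7 and 25 in annotated cells. The interval of the ependymal ratio (0.712 to 5.30) included 1. Fewer barcodes of a kind and less RNA per barcode cannot be told apart in such sums.

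**Figure D4:**
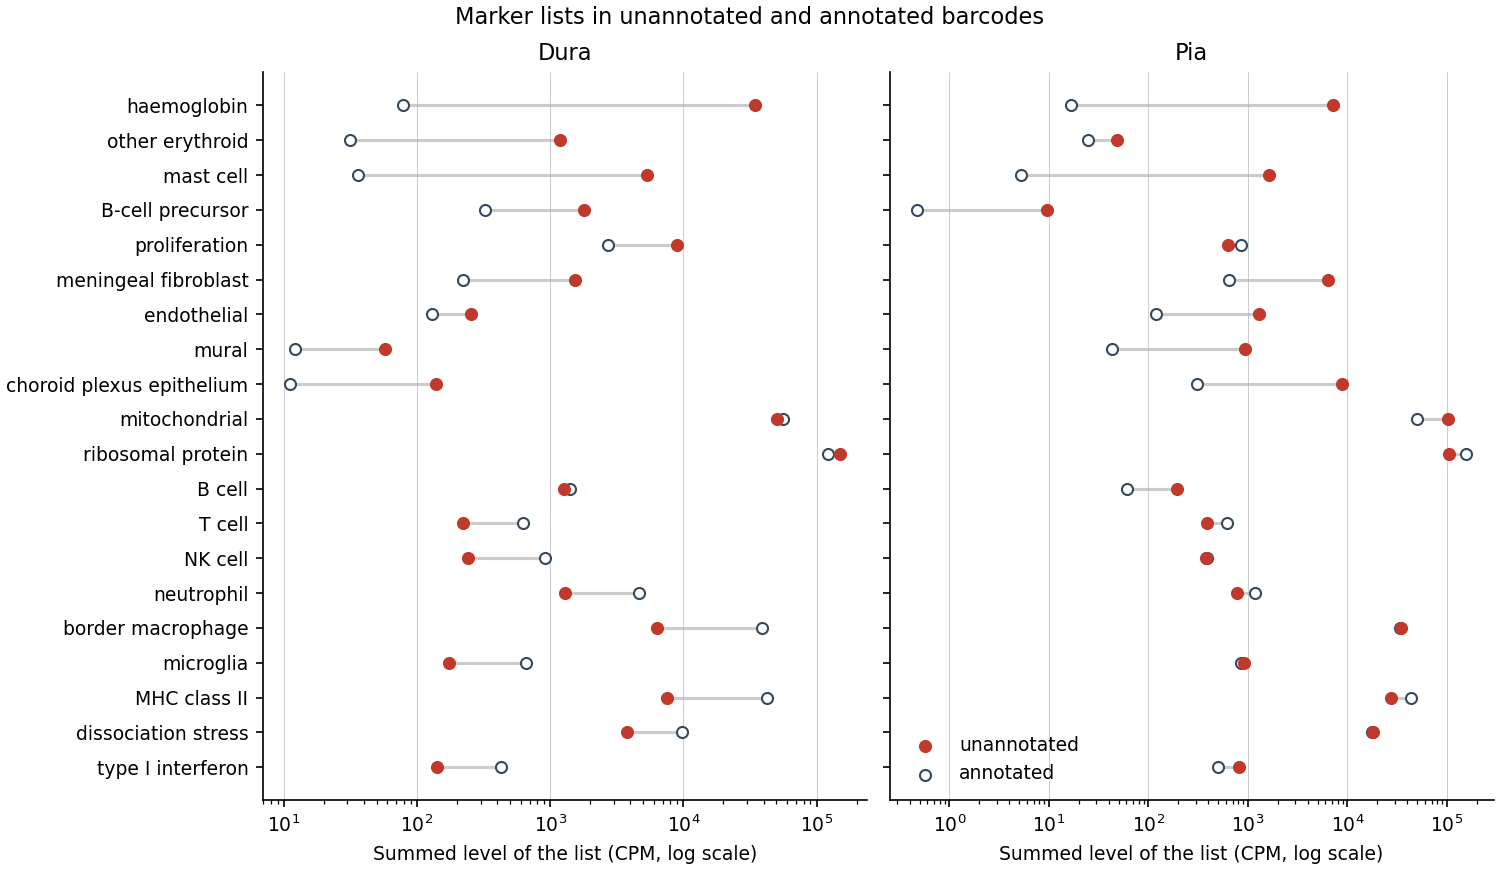
Summed level of each marker list (x axis, CPM, log scale) in unannotated barcodes and annotated cells of dura and of pia, 1 row per list, with a line joining the values of a row. In dura the haemoglobin, mast cell, other erythroid and fibroblast lists lie far to the right in unannotated barcodes and the border macrophage and class II lists to the left; in pia the border macrophage values coincide, and the B precursor values rest on 1 and 2 UMIs.

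Unannotated pia barcodes had macrophage genes at the level of annotated pia cells. The border macrophage list summed to 34262 against 33582 CPM (1.02-fold, 0.987 to 1.05), with 0 of 12 genes past 2-fold (median log2 ratio 0.04 beside -0.08 for all genes). Apoe was at 18802 against 15133 CPM, C1qa at 3670 against 4698 CPM, and the mannose receptor gene Mrc1 at 1098 against 862 CPM. Microglia genes (1.06-fold, 0.859 to 1.31) and dissociation stress genes (1.03-fold, 0.983 to 1.08) were also within 2-fold. The heat shock gene Hspa1b, the only stress gene past the fold (13.3% of all genes were that much higher), was at 597 against 243 CPM. Class II genes were at 27626 against 43751 CPM, with 2 of 8 genes at least 2-fold lower (6.88% of all genes were) and 1 higher. Mitochondrial genes summed to 101669 against 50251 CPM (2.02-fold, 1.98 to 2.06), with 7 of 13 genes at least 2-fold higher, and ribosomal protein genes to 103798 against 156345 CPM. In the 41 barcodes inside the gene and mitochondrial range, mitochondrial genes were at 47395 CPM. That set leaves out barcodes of high mitochondrial share by its definition, so this value is partly fixed by the selection. The border macrophage list was at 21551 CPM in the 41.

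Each unannotated barcode was also given the authors' cluster of its tissue that its counts were most like. In pia the cluster of best match was myeloid 2 for 146 of 279 (52.3%, 46.3 to 58.3), a cluster that held 37.5% of annotated pia cells, micro for 54 (19.4%; 7.70% of annotated cells) and myeloid1 for 52 (18.6%; 33.8% of annotated cells). In dura the best match was Bc2 for 82 of 241 (34.0%, 28.1 to 40.4; 7.49% of annotated cells), micro for 61 (25.3%; 2.14%) and granulo for 23 (9.54%; 0.727%). The score must return one of the deposited names, also for barcodes of none of those kinds: 21 of the 24 erythroid-like dura barcodes were given granulo and 15 of the 16 in the mixed Snap25 and Plvap cluster were given micro. With each annotated cell left out in turn it returned the authors' own name for 88.1% of dura and 80.5% of pia cells. The score adds a small constant to every gene in the sum of each cluster, which weighs more in clusters with few UMIs. Genes absent from all clusters therefore favour small ones, such as granulo with 36 dura cells and micro with 106. How far this moved best matches was not tested.

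Haemoglobin RNA in unannotated pia barcodes was that of 1 barcode. The list had 749 UMIs, of which 747 were in a barcode with 1243 UMIs and 56 genes, 60.1% of it haemoglobin. All 73 Hbb UMIs were in it, and annotated pia cells had 3 Hbb UMIs in 3 cells. The ratio of the list, 431-fold (338 to 558), therefore describes this barcode, and without it the log2 ratio was 0.22. Its gene number and its haemoglobin share lie within those of the 13 dura barcodes with 45 to 187 genes.

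Ttr RNA was spread more widely in pia. It had 891 UMIs in 54 of 279 unannotated barcodes and 1246 UMIs in 575 of 4039 annotated cells, or 8582 against 293 CPM, 29.2-fold higher (26.8 to 31.9). The highest 3 barcodes, at 268, 208 and 194 UMIs, held 75.2% of it, and the next were at 32 and 27. The first of these had 2116 UMIs, a mitochondrial share of 36.2%, 4 UMIs of Enpp2 and 4 of Ptgds; the second had 455 UMIs, of which Ttr was 45.7%; the third had 1214 UMIs. Asmt, Tph1, Gngt1 and Snap25, which went with Ttr in dura, had 0 UMIs in these 5. Folr1, the folate receptor of choroid plexus, had 4 UMIs against 19 in annotated cells. A cluster of 40 barcodes led by Ttr, Mt-nd5 and Ptgds had a median mitochondrial share of 19.6% and held Ttr at 49081 CPM and Ptgds at 18561 CPM.

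Ptgds, which in pia is abundant in leptomeningeal fibroblasts, had 587 UMIs in 115 unannotated barcodes and was at 5654 against 526 CPM, 10.8-fold higher (9.81 to 11.8). It reached 2 UMIs in 61 barcodes and Ttr in 23, with 6 in common. The fibroblast list summed to 6319 against 642 CPM, and was carried by 76 unannotated (27.2%) and 540 annotated (13.4%) pia barcodes. Igfbp2 and Mgp had 16 and 25 UMIs, against 43 each in annotated cells, and Col3a1 6 against 19. Dcn, Col1a1 and Lum had 0 UMIs in unannotated pia barcodes, which leaves Ptgds as most of the list's sum.

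Endothelial genes summed to 1300 CPM in unannotated and 118 CPM in annotated pia barcodes, 11-fold higher (9.03 to 13.3), on 135 against 502 UMIs. Of the 13 in the file 9 reached the minimum, and Cldn5, Emcn, Ramp2 and Esam did so only through unannotated barcodes. Cldn5, the tight junction protein of brain vessels, had 26 UMIs in 11 unannotated barcodes and 15 in annotated cells (70.9-fold, 36.2 to 144), and Slco1a4, an organic anion transporter of the blood-brain barrier, 22 in 13 against 8 (112-fold, 48.2 to 292). Emcn had 13 UMIs against 7, Plvap 33 against 35, Ramp2 14 against 14 and Esam 9 against 18. Igfbp7, Tm4sf1, Sdpr, Prkcdbp, Wfdc1 and Akr1cl were 40.9-fold to 111-fold higher. These 6 were among the 12 highest genes in pia, with Slco1a4, Emcn, Cldn5, Ramp2, Cpa3 and Mcpt8l2. Of these 12, all but Wfdc1 reached the minimum only through unannotated barcodes. The list reached 2 UMIs in 17 unannotated pia barcodes, and 16 of these were among the 41 inside the gene and mitochondrial range. There the list was at 3671 CPM, against 117 CPM in the 209 barcodes below the gene range. Tie1 was under 2-fold, with 2 UMIs in 1 barcode against 89, and Tek and Eng had 2 and 3 UMIs, against 38 and 39.

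Mast cell genes were also found in pia. The list summed to 1637 against 5.18 CPM, 316-fold higher (202 to 518), on 170 against 22 UMIs. Of its 10 genes in the file 3 reached the minimum, each only through unannotated barcodes. It was carried by 5 of 279 unannotated barcodes (1.79%, 0.584 to 4.13), all inside the range, and by 0 of 4039 annotated cells. Taking 3 counts of 4039 as the limit that a count of 0 allows, that is a share of up to 0.0743%, and 22 annotated cells had 1 UMI of the list. Cpa3 had 53 UMIs in 5 barcodes against 4 in annotated cells, and Mcpt8l2 had 74 in 5 against 15. Mural genes were 21.9-fold higher (17.0 to 28.1), but 86.7% of their UMIs, including 52 of the 54 of Acta2, the smooth muscle actin, lay in 1 barcode. Astrocyte genes were 6.44-fold higher (4.49 to 9.02), on 40 UMIs in all. Of their members 4 of 4 measured were past the fold (13.3% of all genes were at least 2-fold higher). The B cell list was at 193 against 60.3 CPM, on 20 UMIs in 7 barcodes, with Cd79a at 11 UMIs against 48; inside the gene and mitochondrial range it had 1 UMI in 41 barcodes and a log2 ratio of -1.03. Mbp, the myelin basic protein, had 29 UMIs in 27 barcodes (3.71-fold, 2.44 to 5.43).

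The genes lowest in unannotated pia barcodes rested on 1 or 2 UMIs each. Pde4b, a phosphodiesterase of cyclic AMP, had 1 UMI against 477 in annotated cells, a ratio of 0.0857 (0.00217 to 0.480), and Rps6 and Parp1 had 1 UMI against 339 and 301. Among the 12 lowest, the intervals of Mthfd2, Maff, Arhgap15, Ccnd2, Me2 and Rbck1 included a ratio of 1. At this depth no marker list was at least 2-fold lower by its sum in pia, while 11 were at least 2-fold higher. The 11 include the bone-forming list, on 5 UMIs against 34, and their number was 10 under TMM.

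**Figure D5:**
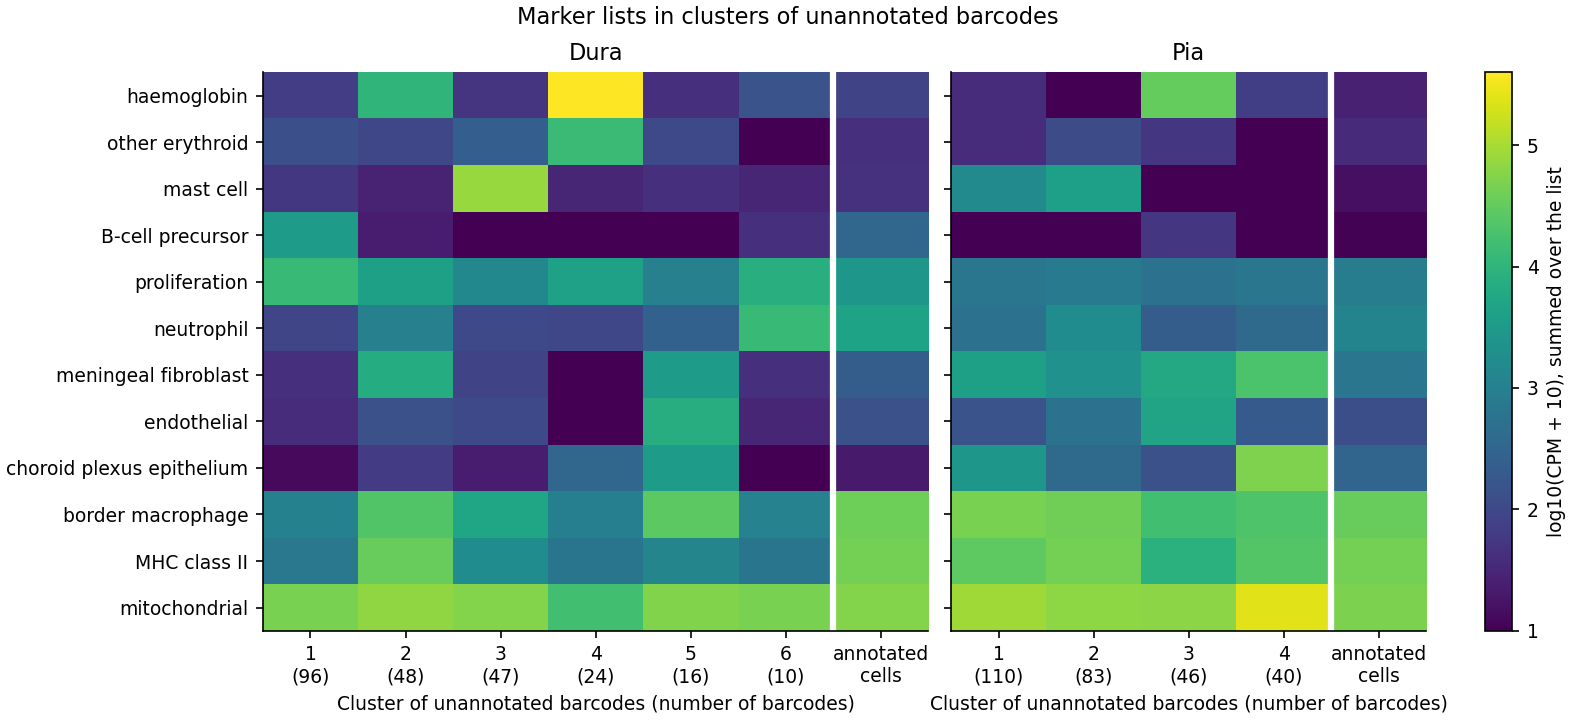
Summed level of marker lists, as log10(CPM + 10), in each cluster of unannotated barcodes (columns, with the number of barcodes) and in annotated cells (last column) of dura and of pia. In dura the B precursor list is highest in cluster 1, mast cell in cluster 3, haemoglobin in cluster 4 and neutrophil in cluster 6; in pia endothelial genes are highest in cluster 3, where 1 barcode of 747 haemoglobin UMIs also falls, and choroid plexus genes in cluster 4.

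In pia, clustering gave 4 groups. The 2 largest, of 110 and 83 barcodes, were led by Atf4, Ccl7, Dnajb1 and Ccl3 and by G0s2, Ctss, Cybb and Lyz2, and 104 and 64 of their barcodes were below the gene range. The third, of 46 barcodes, was led by Id1, Cldn5, Slco1a4, Igfbp7 and Sox17. Its median of 289.5 UMIs lay under 319 UMIs, the median of the library divided by 3, and it is left unnamed. Haemoglobin was also higher in unannotated than in annotated barcodes of the other rat libraries: 273475 against 183 CPM in blood, 80109 against 932 CPM in CSF, 6470 against 24.4 CPM in choroid plexus and 113 against 9.27 CPM in CNS. Ttr was at 146681 against 20001 CPM in CSF, 58232 against 3768 CPM in choroid plexus, 5.97 against 0.605 CPM in CNS and 0 against 0.137 CPM in blood.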

How the data were processed

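The rat expression matrix deposited by the authors holds raw UMI counts of 6 pooled libraries. The submitters' processing notes name Cell Ranger 3.1.0 and Rnor_6.0, while version 3.0.2 stands in the matrix, per the file headers. Libraries were told apart by barcode suffix, and clusters by the deposited annotation. The members and gene lists were chosen with earlier results of these data known.

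Counts were summed over the barcodes of a set and divided by its total (CPM). The 95% interval of a ratio is the exact conditional binomial one, that of a share the exact Clopper-Pearson one. Genes needed 20 UMIs over both sets. Where one set had 0 UMIs, a floor of 3 counts over the group took its place. Named genes were the 12 with the highest and the 12 with the lowest ratio per tissue whose UMIs on the higher side came from at least 5 barcodes, besides Hbb, Ttr and list members. A barcode carried a list at 2 or more UMIs. Thinned shares are hypergeometric expectations. Unannotated barcodes were clustered per tissue (10000 UMIs, log, 1000 variable genes, 20 components, leiden at resolution 0.5) with scanpy 1.11.5 and igraph 0.11.9, and named only from the marker lists. Likeness is the highest multinomial log likelihood. Doublets were called with scrublet and kept. An alternative scaling used TMM factors (edgeR 4.0.16, R 4.3.3). Python 3.11.15, numpy 2.4.6, scipy 1.17.1 and pandas 2.3.3 were used. The gene-level comparison was checked on simulated summed counts, which have no barcode structure, and the thinning formula on a small example. Clustering, likeness and doublet calls were not checked in this way. No p-value was computed. Mouse files were not used here.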

Additional observations from a re-analysis of the deposited data

How the results depend on the processing

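The count here covers marker lists and named genes, and leaves out the haemoglobin list and Ttr, whose values are given further on. Named genes other than Hbb were chosen for extreme ratios in these data, so their staying past 2-fold is partly fixed by that choice. There were 714 log2 values under alternatives of results that were 2-fold or more as reported. Of these, 690 were still 2-fold or more in the same direction, 22 were under 2-fold in the same direction, and 2 reversed. Both of these were in the 41 pia barcodes inside the gene and mitochondrial range, where the B cell list had a log2 ratio of -1.03 and the mitochondrial list -0.084. Barcodes of high mitochondrial share are left out of that set by its definition, so the mitochondrial value is partly fixed by the selection. The cause of changed values was not tested.

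In dura the number of genes at least 2-fold higher was 1044 under TMM. The haemoglobin log2 ratio (8.78) was 8.46 under TMM, 9.31 as a mean over barcodes, 9.0 without the 10 deepest barcodes, 9.05 within the 5th to 95th percentile of UMIs, 8.98 inside the annotated range and 8.59 without its highest barcode. The Ttr log2 ratio (5.50) was 6.98 inside the range and 3.49 without its highest barcode. Carrier shares (14.9% haemoglobin, 16.2% fibroblast, 21.2% mast cell) were 25.7%, 29.9% and 27.0% at 1 UMI; haemoglobin was 10.4% at 200 UMIs, and fibroblast 9.66% at 500 and 6.70% at 200 UMIs.

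In pia the number of genes higher (1068) was 662 under TMM, 669 within the UMI percentiles, 1910 and 471 with minimums of 5 and 50 UMIs, and 1740 inside the range; the number lower (554) was 1044 under TMM, 960 as a mean over barcodes and 277 inside the range. The haemoglobin log2 ratio (8.75) was 7.50 as a mean over barcodes, 2.59 within the percentiles, 0.44 without the 10 deepest barcodes and 0.22 without its highest barcode, with no value inside the range. The Ttr log2 ratio (4.87) was 4.55 under TMM, 3.75 as a mean, 3.94 without the 10 deepest, 3.60 within the percentiles, 5.08 inside the range and 4.38 without its highest barcode. Lists at least 2-fold lower (0) were 2 within the percentiles and 5 inside the range. Carrier shares were 3.23% haemoglobin and 12.9% mast cell at 500 UMIs, where only 31 barcodes remain, and fibroblast 46.6% at 1, 12.9% at 3 UMIs and 16.8% thinned to 200. Clusters were 8 at resolution 1.0.

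The alternatives inside the annotated range, without the highest barcode and at 200 UMIs were chosen after seeing the data. No paired analysis was possible because each tissue is 1 library and no result comes from a test. With 1 library per tissue there was no replicate to leave out. Pia values rest on 103817 UMIs, so genes at a few UMIs are not resolved there.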
